A study of Mus musculus with 3 samples.

Results

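Wnt ligands, their receptors, the proteins that carry the signal inside the cell and the secreted proteins that block it were compared between dorsal skin of uncv null and wild type mice. The genes were taken from a list of 48 Wnt pathway symbols, and each was represented by the probe set with a single annotated symbol and the highest mean over the 3 arrays. Of the 48 genes, 47 had such a probe set among the 18193 named genes of the array, and Tcf7 had none. By role, the list held 14 ligands and agonists (with the proteins that modify or export them), 14 receptors, 11 transducers and 9 secreted inhibitors.

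All 3 samples came from BALB/cA females, whose dorsal skin was taken at 4 days of age. The control group was 1 wild type mouse (uncv +/+), and the other group was 2 uncv null mice (uncv -/-), numbered 1 and 2 in the labels and called null 1 and null 2 here. The mice were sisters, and both parents were uncv heterozygotes. The uncv allele arose spontaneously, leaves the coat thin or absent, and is known to lie in Rhbdf2 (iRhom2, an inactive rhomboid), and the null mice carry it in every cell rather than in a chosen cell type.

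Wnt proteins are lipid-modified secreted signals. In the canonical branch they bind a Frizzled receptor together with Lrp5 or Lrp6, which stops the destruction complex of Axin, Apc and Gsk3b from degrading beta-catenin, so that beta-catenin can act with Tcf and Lef factors on target genes. Other branches, known for Wnt5a and Wnt11, pass through Frizzled, Ror and Ryk receptors without beta-catenin. In skin the pathway is known for starting hair follicles and for driving the hair matrix and shaft during growth, and dermal cells are a known source of both Wnt ligands and secreted Wnt inhibitors.

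The comparison addressed which Wnt pathway transcripts differ in the skin of young uncv null mice. The transcripts that stood farthest from wild type were secreted inhibitors. Sfrp2, Sfrp4 and Dkk3 lay below wild type on both uncv null arrays, with mean differences on the log2 scale (uncv null minus wild type) of -1.11 ± 0.48, -0.81 ± 0.33 and -0.68 ± 0.26 (limma's moderated SE, 1 against 2 arrays, adjusted p = 0.9997 for each). The receptor Fzd5 and the ligands Wnt11 and Wnt10a lay above wild type on both arrays, at 0.63 ± 0.26, 0.50 ± 0.28 and 0.43 ± 0.27. Ctnnb1, the gene of beta-catenin itself, was at -0.06 on each uncv null array by its brightest probe set. Its 2 dimmer probe sets were lower in null 1, at -0.50 and -1.06, and at -0.08 and -0.02 in null 2.

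None of these differences passed the test. Genes were tested where the mean over the arrays was 5 or more on the log2 scale. Under this filter 30 of the 48 genes were tested among 8456 genes. Of the rest, 17 had a lower mean and were not tested. By limma with Benjamini-Hochberg adjustment over all 8456 genes, 0 of the 30 passed an adjusted p of 0.05 in either direction, beside 0.0% of all tested genes. At an unadjusted p under 0.05 limma had 3 of the 30 lower (Sfrp2, Sfrp4 and Dkk3), beside 2.05% of all tested genes, and 1 of the 30 higher (Fzd5), beside 2.52%. Sfrp4 passed the filter through its wild type value, since its uncv null values together average under 5. Its place in this count, in later counts of tested genes and in the inhibitor group's median thus depends in part on the filter. With 1 array against 2, an exact permutation test of a single gene cannot give a p below 0.333. The values below are descriptions of these 3 arrays, and limma's spread rests on 1 residual degree of freedom moderated over all tested genes.

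The arrays themselves differed in measures of quality. The mean over 3 probe sets of 18S rRNA was 3.59 for wild type, 7.93 for null 1 and 4.26 for null 2, and the 18 hybridisation spike-in probe sets had means of 8.01, 8.71 and 8.44. Among the Actb controls, the 3' signal exceeded the 5' signal by 0.66, 1.23 and 0.79, so null 1 was the highest array by all 3 measures. Null 2 stood farther from wild type than null 1 did, with an SD of the log2 differences over all tested genes of 0.45 against 0.32. Both null values are given throughout. Of the 30 tested Wnt genes, 19 lay farther from wild type in null 2 (63.3%), beside 59.7% of all tested genes. The part of these array differences in the values below was not tested. Skin markers (Krt5, Krt14, Krt1 and Krt10 of keratinocytes, Col1a1, Col1a2 and Col3a1 of fibroblasts) were all between 11.1 and 12.9 on every array. Rhbdf2 was at 5.83 in wild type and at 6.29 and 6.49 in null 1 and null 2, which checks no label, since it is not known here whether its probes lie within the mutated stretch.

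**Figure D1:**
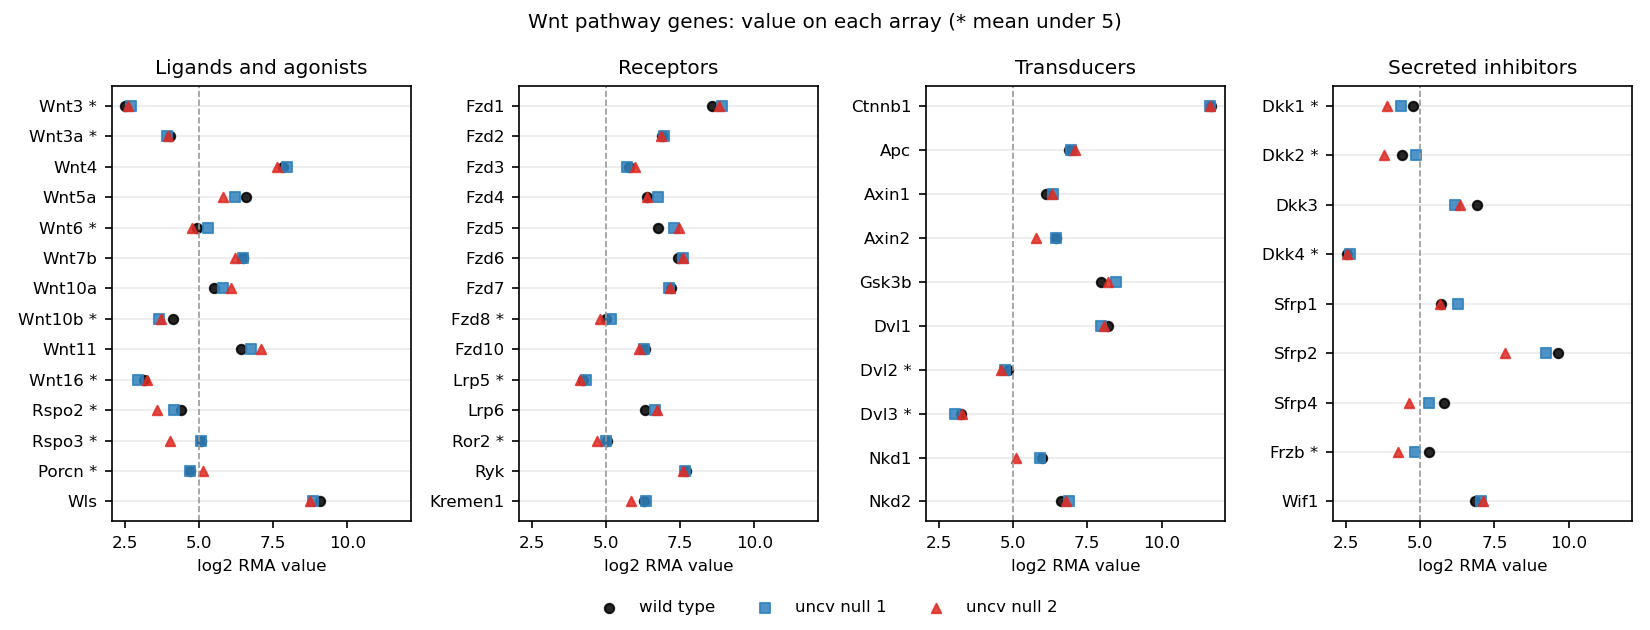
Log2 RMA value (x axis) of the 47 Wnt genes (rows, grouped by role) on the wild type array (black circles), null 1 (blue squares) and null 2 (red triangles); an asterisk marks a mean under 5, and the dashed line stands at 5. For most genes the 3 symbols overlap, while Sfrp2 runs from 9.66 in wild type to 7.87 in null 2. Levels of different genes come from different probes and are not comparable.

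By size alone the Wnt genes stood out little. No gene of the 30 was at least 2-fold (1 log2 unit) higher on both uncv null arrays, beside 0.225% of all tested genes, and none was 2-fold lower on both, beside 0.296%. At 1.5-fold on both arrays, Dkk3 was the 1 gene of 30 that was lower, beside 1.35% of all tested genes, and 0 of 30 were higher, beside 1.49%. Dkk3 was just inside this limit of 0.585 log2 units, with -0.75 and -0.60, and Fzd5 was just outside it, with 0.54 and 0.71. Disregarding size, 12 of the 30 lay above wild type on both arrays, beside 38.8% of all tested genes. Another 13 lay below on both, beside 26.4%, and 5 were split. These counts, and those by role below, take in differences near 0, such as Fzd4 at 0.008 in null 2 and Axin2 at -0.014 in null 1. The median difference of the 30 was 0.06 in null 1 and -0.03 in null 2, beside 0.03 and 0.07 over all tested genes. Over all 47 genes with a probe set, where the dim genes enter, 14 lay above wild type on both arrays, beside 33.9% of the 18193 named genes, and 21 lay below, beside 29.2%.

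**Figure D2:**
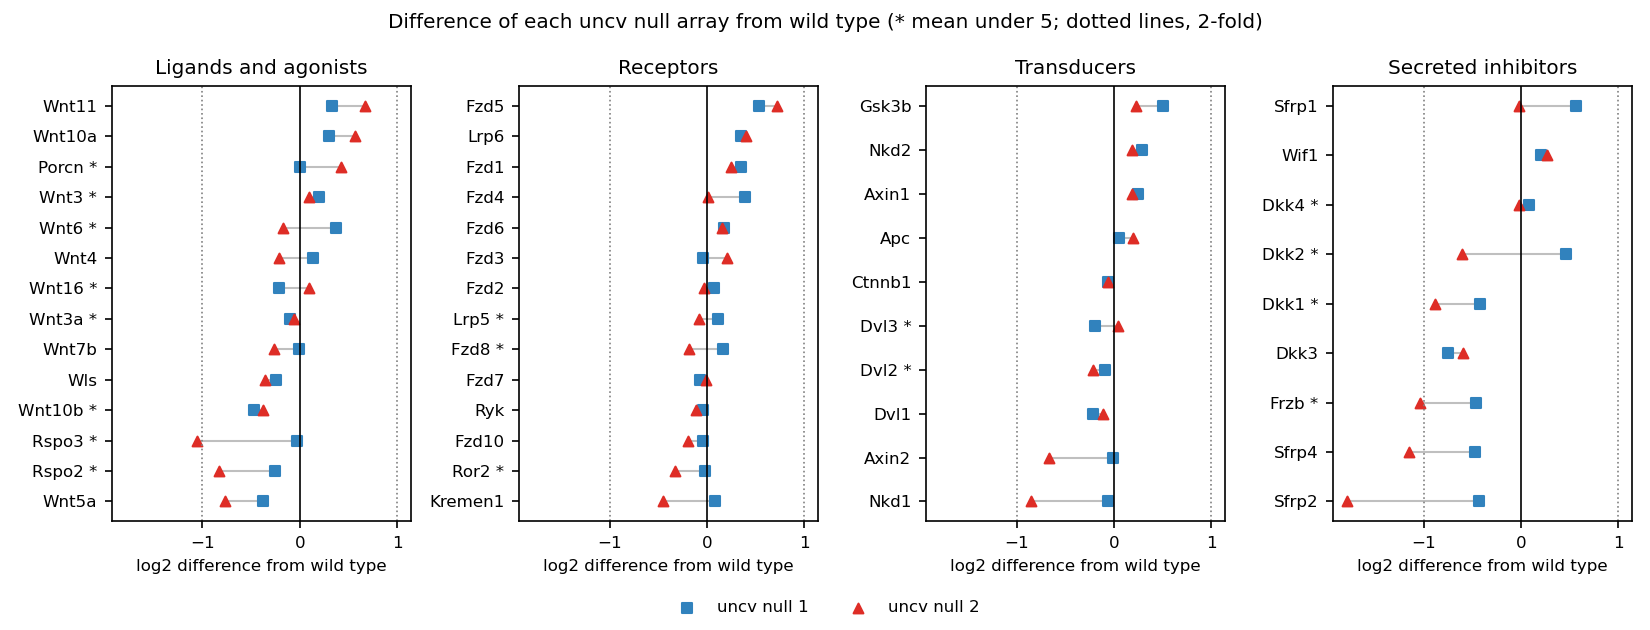
Log2 difference from wild type (x axis) of null 1 (blue squares) and null 2 (red triangles) for the 47 Wnt genes, sorted by their mean difference within each role; grey lines join the 2 arrays of a gene, dotted lines mark 2-fold, and an asterisk marks a mean under 5. The secreted inhibitors reach farthest to the left, with Sfrp2 at -0.43 and -1.79, while the receptors lie between -0.45 and 0.71.

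Ligands, agonists and the proteins that export them held 6 tested genes of 14. Of these 6, Wnt10a and Wnt11 lay above wild type on both arrays, beside 38.8% of all tested genes. Wnt5a, Wnt7b and Wls lay below on both, beside 26.4%, and Wnt4 was split. The median of the 6 was 0.06 in null 1 and -0.24 in null 2, and it changed sign when all probe sets of a gene were averaged, so the group has no settled direction.

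Wnt5a, a ligand of the beta-catenin-independent branch that is known from dermal cells and the follicle, was at 6.58 (log2) in wild type, 6.20 in null 1 and 5.81 in null 2. Both uncv null values were below wild type, and the mean difference was -0.57 ± 0.28 (1.49-fold lower, limma adjusted p = 0.9997). Its 3 other probe sets were dimmer. They gave -0.71 and -0.82, 0.04 and -0.49, and -0.48 and -0.36 in null 1 and null 2. The last pair came from a probe set at 3.53, 3.06 and 3.18, below the median over all single-gene probe sets on each array. Of the 8 differences over the 4 probe sets of Wnt5a, 7 were below 0, and all 8 share the wild type array.

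Wnt11, a ligand also known for beta-catenin-independent signalling, was at 6.42 in wild type, 6.75 in null 1 and 7.09 in null 2. Its mean difference was 0.50 ± 0.28 (1.42-fold). Wnt10a, an epithelial ligand of the hair placode and matrix whose loss in people affects hair, teeth and nails, was at 5.51, 5.81 and 6.08, a mean difference of 0.43 ± 0.27 (1.35-fold). In both genes the 2 uncv null values were above wild type and null 2 was the higher. Each has 1 single-gene probe set.

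Wls, the carrier that brings Wnt proteins to the cell surface, was at 9.09 in wild type, 8.84 in null 1 and 8.73 in null 2. The mean difference was small at -0.30 ± 0.26, but its 3 other probe sets were below wild type on both arrays too. They gave -0.32 and -0.20, -0.43 and -0.35, and -0.30 and -0.14. The last pair came from a probe set at 2.98, 2.68 and 2.85, below the median over all single-gene probe sets on each array. Wnt4 was at 7.82, 7.96 and 7.61, while its second probe set was above wild type on both arrays, at 6.89, 7.33 and 7.04, so no direction is given for it. Wnt7b, an epithelial ligand, was at 6.49, 6.47 and 6.22. A second, dimmer probe set of Wnt7b was low on both null arrays, at 5.03, 4.34 and 4.39. The 95% interval of the mean difference ran from -0.67 to 0.59 for Wnt4 and from -0.75 to 0.47 for Wnt7b, so a change of 1.5-fold in either direction lay within the Wnt4 interval.

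The 8 genes of this group with a mean under 5 were Wnt3, Wnt3a, Wnt6, Wnt10b, Wnt16, Porcn, Rspo2 and Rspo3. Rspo2 and Rspo3 encode R-spondins, secreted agonists that keep Frizzled receptors at the cell surface. Rspo3 was at 5.07 in wild type, 5.05 in null 1 and 4.02 in null 2, and Rspo2 at 4.40, 4.15 and 3.57. In both, null 2 was the low array and null 1 was at or closer to wild type. Wnt10b, a ligand of follicle formation, was at 4.10, 3.63 and 3.72, and Porcn, the enzyme that attaches the lipid to Wnt proteins, at 4.70, 4.70 and 5.12. Wnt6 was at 4.93, 5.30 and 4.76. Wnt3, Wnt3a and Wnt16 were between 2.52 and 4.01 on every array, below the median over all single-gene probe sets of the same array.

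Receptors held 11 tested genes of 14, and most of them differed little. Of the 11, Fzd1, Fzd4, Fzd5, Fzd6 and Lrp6 lay above wild type on both arrays, beside 38.8% of all tested genes. Fzd7, Fzd10 and Ryk lay below on both, beside 26.4%, and Fzd2, Fzd3 and Kremen1 were split. The median was 0.08 in null 1 and 0.01 in null 2, close to that of all tested genes.

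Fzd5, a Frizzled receptor of epithelia, was at 6.73 in wild type, 7.27 in null 1 and 7.45 in null 2. Both uncv null values were above wild type, and the difference between them was smaller than the distance of either from wild type. The mean difference was 0.63 ± 0.26 (1.54-fold, 95% interval 0.03 to 1.23, limma adjusted p = 0.9997). A dim second probe set of Fzd5 gave 0.09 and 0.19, and the mean over both was 0.38.

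Lrp6, the co-receptor that docks Axin, was at 6.30 in wild type, 6.66 in null 1 and 6.71 in null 2, a mean difference of 0.38 ± 0.26 (1.30-fold). Its second, dimmer probe set lay on the same side, at 0.23 and 0.65. Fzd1 was at 8.55, 8.91 and 8.80 by its brightest probe set, but its other tested-level probe set was at -0.59 in null 1 and 0.17 in null 2. Averaging both gave 0.05, so no direction is given for Fzd1. Fzd4, a receptor of vessels and other tissues, was at 6.36, 6.75 and 6.37, with null 1 high and null 2 at the wild type level. Its 2 dimmer probe sets were below wild type on both arrays, at -0.24 and -0.12 and at -0.32 and -0.10, so no direction is given for Fzd4 either.

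Fzd6, known in skin for aligning hair follicles through planar polarity, was at 7.44, 7.61 and 7.59, and Fzd7 at 7.18, 7.10 and 7.17. Fzd10 was at 6.31, 6.28 and 6.12, and Ryk, a receptor of the beta-catenin-independent branch, at 7.70, 7.66 and 7.59. By these probe sets the 3 arrays lay close together in each of the 4 genes. A dimmer probe set of Fzd6 that also reached a mean of 5 did not, at 5.04, 4.61 and 5.41, low in null 1 and high in null 2. Kremen1, a partner of the Dkk inhibitors, was at 6.27 and 6.35 in wild type and null 1 and at 5.82 in null 2. Below the filter, Lrp5 was at 4.21, 4.33 and 4.13, Fzd8 at 4.98, 5.15 and 4.80, and Ror2, a receptor for Wnt5a, between 4.70 and 5.03. Fzd2 was at 6.88, 6.95 and 6.85, and its 2 other probe sets lay on opposite sides of wild type, at 0.56 and 0.04 and at -0.59 and -0.34. Fzd3, known for planar polarity, was at 5.75, 5.72 and 5.96.

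Transducers held 8 tested genes of 11. Of these, Apc, Axin1, Gsk3b and Nkd2 lay above wild type on both arrays, beside 38.8% of all tested genes. Ctnnb1, Dvl1, Axin2 and Nkd1 lay below on both, beside 26.4%. The median was 0.02 in null 1 and 0.06 in null 2, and its sign changed with the filter and the probe set rule, so it has no settled direction.

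Ctnnb1, which encodes beta-catenin, was at 11.68 in wild type, 11.62 in null 1 and 11.62 in null 2, with a 95% interval of -0.65 to 0.53 for the mean difference. Its 2 dimmer probe sets were low in null 1 and near wild type in null 2. One was at 9.39, 8.90 and 9.31 and the other at 8.82, 7.76 and 8.80, which is -0.50 and -1.06 in null 1 and -0.08 and -0.02 in null 2. Gsk3b, the kinase that marks beta-catenin for destruction, was at 7.97, 8.47 and 8.19, a mean difference of 0.36 ± 0.27, but of 0.06 when its 6 probe sets were averaged. Apc and Axin1, scaffolds of the destruction complex, were at 6.89, 6.94 and 7.08 and at 6.10, 6.35 and 6.29. A dim second probe set of Axin1 was below wild type, at -0.37 and -0.42. Dvl1, which relays the signal from Frizzled, was at 8.19, 7.98 and 8.07, while Dvl2, at most 4.81, and Dvl3, between 3.05 and 3.29, had means under 5.

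Axin2 and Nkd1 are feedback inhibitors whose transcripts are themselves targets of beta-catenin signalling in many tissues. Axin2 was at 6.44 in wild type, 6.43 in null 1 and 5.78 in null 2. Nkd1 was at 5.96, 5.90 and 5.10. In both genes null 1 was at the wild type level and null 2 was low. The mean differences were -0.34 ± 0.32 for Axin2 and -0.46 ± 0.35 for Nkd1, with the difference in null 2 at -0.66 (1.58-fold lower) and -0.85 (1.81-fold lower). The second probe set of Axin2, at 3.60, 3.35 and 3.15, was below the median over all single-gene probe sets on each array. A further probe set of Nkd1 was low on both arrays, at 5.21, 4.35 and 4.05, while its other 2 gave -0.06 and -0.26, and -0.06 and -0.52. Nkd2, a paralog of Nkd1, was at 6.61, 6.89 and 6.79, and its 2 other probe sets with a mean of at least 5 were split between the null arrays.

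Secreted inhibitors were the group with the largest differences, with 5 tested genes of 9. Their median was -0.43 in null 1 and -0.60 in null 2, beside 0.03 and 0.07 over all tested genes. Over all 9 genes, with no filter, it was -0.42 and -0.61. Of the 9, Sfrp2, Sfrp4, Frzb, Dkk1 and Dkk3 lay below wild type on both arrays, beside 29.2% of all named genes. Wif1 lay above on both, beside 33.9%, and Sfrp1, Dkk2 and Dkk4 were split. Their counts describe a list and are not a test of it.

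Sfrp2, a secreted Frizzled-related protein that is abundant in dermal fibroblasts, was at 9.66 in wild type, 9.22 in null 1 and 7.87 in null 2. Both uncv null values were below wild type, and null 2 was far lower than null 1. The mean difference was -1.11 ± 0.48 (2.16-fold lower, 95% interval -2.20 to -0.03, limma adjusted p = 0.9997). This difference rests largely on null 2, which alone was 3.46-fold below wild type, whereas null 1 was 1.35-fold below it. Sfrp2 has 1 probe set, so no second one checks it.

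Sfrp4, of the same family, was at 5.78 in wild type, 5.31 in null 1 and 4.63 in null 2, a mean difference of -0.81 ± 0.33 (1.76-fold lower). Frzb, also called Sfrp3, had a mean of 4.80 and was not tested. Its 2 probe sets were at 5.30, 4.83 and 4.26 and at 4.24, 3.62 and 3.26, and both were ordered in the same way as Sfrp4. In these 3 genes wild type was the highest array and null 2 the lowest. Sfrp1 did not share the pattern. Its brightest probe set was at 5.70 in wild type, 6.26 in null 1 and 5.68 in null 2, but 3 of its 4 dimmer ones were below wild type on both arrays.

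Dkk3, a divergent member of the Dickkopf family, was at 6.93 in wild type, 6.18 in null 1 and 6.33 in null 2. Both null arrays were below wild type and close to each other, 1.69-fold and 1.51-fold lower. The mean difference was -0.68 ± 0.26 (1.60-fold lower, 95% interval -1.27 to -0.08, limma adjusted p = 0.9997). Its second tested-level probe set was at -0.24 and -0.47. Dkk1, the Lrp6-binding inhibitor known from dermal papilla cells, was at 4.77, 4.34 and 3.88 with a mean under 5. In null 2 it was below the median over all single-gene probe sets. Dkk2 was at 4.38, 4.84 and 3.77, Dkk4, a target of Wnt in hair placodes, was between 2.52 and 2.62 on every array, and Wif1, which binds Wnt proteins directly, was at 6.84, 7.05 and 7.10.

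**Figure D3:**
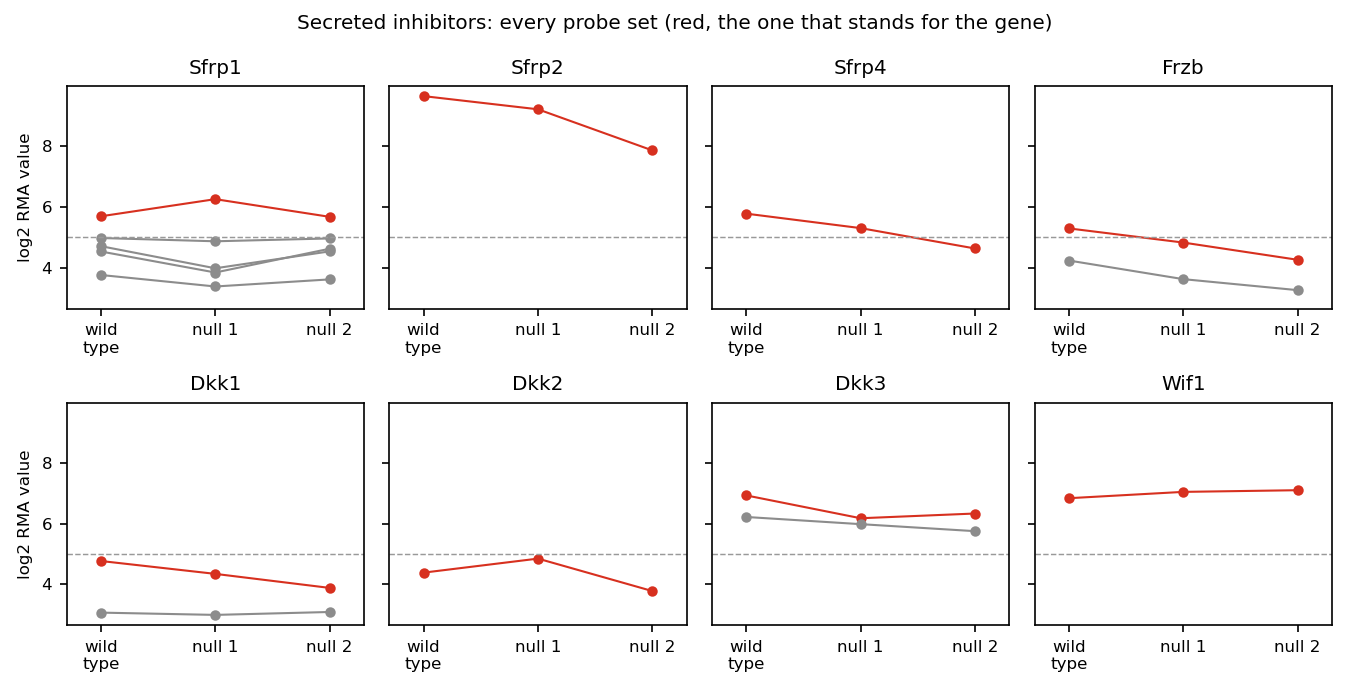
Log2 RMA value (y axis) of every single-gene probe set of 8 secreted Wnt inhibitors on the 3 arrays (x axis); lines join values of 1 probe set and mark no order of the arrays, red is the probe set that stands for the gene, and the dashed line is at 5. Both probe sets of Frzb and both of Dkk3 are below wild type on both uncv null arrays, and Sfrp2 is at 9.66 in wild type and 7.87 in null 2.

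The scatter of both differences for all tested genes places Sfrp2 and Sfrp4 among the genes with the largest differences in null 2. Both axes share the wild type array, so genes tend to lie along the diagonal and no correlation is given. In null 2 alone, 2 of the 30 tested Wnt genes were at least 2-fold below wild type, Sfrp2 and Sfrp4, beside 1.94% of all tested genes. In null 1 alone there were 0 of 30, beside 0.497%. Sfrp4 passed the filter through its wild type value, so its place in the null 2 count depends in part on the filter. No tested Wnt gene was 2-fold above wild type in either array, beside 0.449% of all tested genes in null 1 and 1.54% in null 2.

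**Figure D4:**
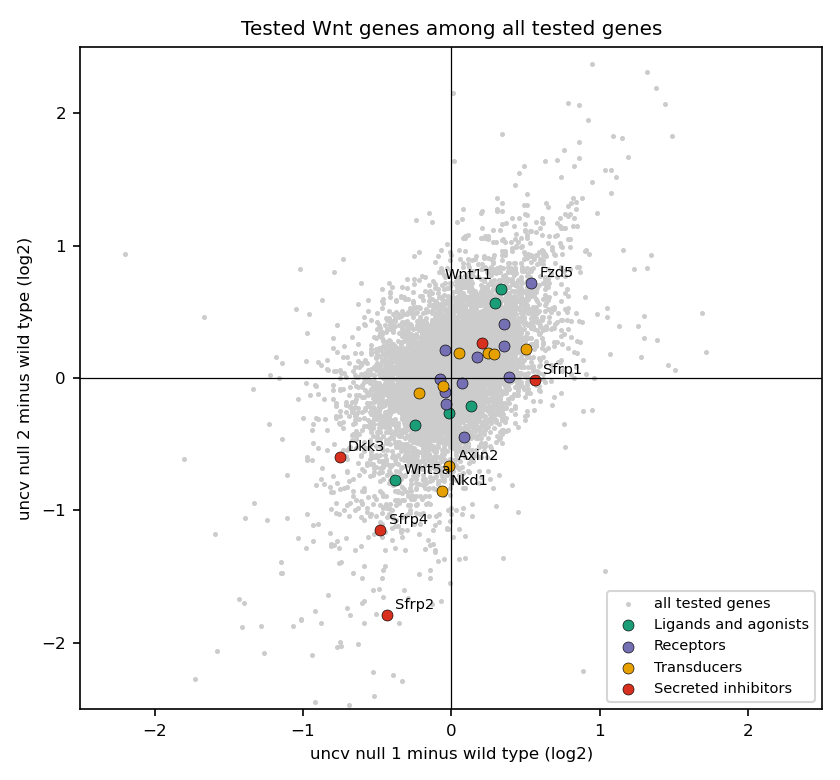
Difference from wild type in null 1 (x axis, log2) and in null 2 (y axis, log2) for all tested genes (grey; 22 beyond 2.5 are outside the axes) and for the 30 tested Wnt genes, coloured by role. Sfrp2 and Sfrp4 lie low at -1.79 and -1.15 in null 2, Dkk3 lies left at -0.75 in null 1, and most other Wnt genes lie within the grey cloud.

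Sequences upstream of the genes are shown for 7 of them, since some genes of the pathway, Axin2 and Nkd1 among them, are known targets of its own Tcf and Lef factors. RefSeq's table for GRCm38.p6 held upstream windows for 29 of the 48 genes (32 windows). The 250 bases before each start were searched for CTTTGA, the core of the Tcf/Lef motif, on both strands (TCAAAG on the other strand). The motif was in 15.6% of the 32 windows and in 13.8% of all 32851 windows of that length. Sfrp4 and Dkk3 had no window, and Frzb and Dkk1 had means under 5 and were not tested by limma. Sequences are given for Sfrp2, Frzb and Dkk1, inhibitors below wild type on both arrays, for Wnt11 and Fzd5, above on both, and for Axin2 and Nkd1, known targets. They run 5′ to 3′ on the gene's strand and end at the base before the start, and capitals mark the motif.
Sfrp2, chr3:83766071-83766320, plus strand: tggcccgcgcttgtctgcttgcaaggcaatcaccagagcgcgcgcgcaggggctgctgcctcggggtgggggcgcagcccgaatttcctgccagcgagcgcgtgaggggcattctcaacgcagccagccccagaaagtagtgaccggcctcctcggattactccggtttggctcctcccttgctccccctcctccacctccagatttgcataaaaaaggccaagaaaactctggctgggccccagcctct
Frzb, chr2:80447397-80447646, minus strand: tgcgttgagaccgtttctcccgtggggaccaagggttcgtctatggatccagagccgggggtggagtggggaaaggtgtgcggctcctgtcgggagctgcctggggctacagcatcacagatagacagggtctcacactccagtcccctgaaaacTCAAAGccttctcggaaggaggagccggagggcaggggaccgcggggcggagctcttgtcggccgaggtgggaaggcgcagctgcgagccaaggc
Dkk1, chr19:30549497-30549746, minus strand: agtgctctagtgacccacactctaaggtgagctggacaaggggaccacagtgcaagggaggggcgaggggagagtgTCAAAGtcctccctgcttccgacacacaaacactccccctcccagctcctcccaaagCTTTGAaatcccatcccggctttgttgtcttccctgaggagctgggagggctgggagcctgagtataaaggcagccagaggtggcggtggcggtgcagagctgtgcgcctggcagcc
Wnt11, chr7:98834862-98835111, plus strand: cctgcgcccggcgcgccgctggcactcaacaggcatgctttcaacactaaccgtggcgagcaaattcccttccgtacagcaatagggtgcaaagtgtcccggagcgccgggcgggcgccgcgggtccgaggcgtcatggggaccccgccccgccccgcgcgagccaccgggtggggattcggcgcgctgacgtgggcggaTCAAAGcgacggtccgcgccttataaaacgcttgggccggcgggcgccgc
Fzd5, chr1:64737751-64738000, minus strand: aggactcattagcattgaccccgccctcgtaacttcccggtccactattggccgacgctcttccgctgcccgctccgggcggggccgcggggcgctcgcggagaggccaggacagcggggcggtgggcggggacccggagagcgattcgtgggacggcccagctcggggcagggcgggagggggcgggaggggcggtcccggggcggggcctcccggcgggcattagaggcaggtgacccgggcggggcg
Axin2, chr11:108920099-108920348, plus strand: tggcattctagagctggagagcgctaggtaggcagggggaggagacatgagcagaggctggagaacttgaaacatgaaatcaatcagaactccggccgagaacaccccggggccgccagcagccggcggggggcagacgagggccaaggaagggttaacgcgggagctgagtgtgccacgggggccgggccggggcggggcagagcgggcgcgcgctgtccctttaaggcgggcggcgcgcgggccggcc
Nkd1, chr8:88527383-88527632, plus strand: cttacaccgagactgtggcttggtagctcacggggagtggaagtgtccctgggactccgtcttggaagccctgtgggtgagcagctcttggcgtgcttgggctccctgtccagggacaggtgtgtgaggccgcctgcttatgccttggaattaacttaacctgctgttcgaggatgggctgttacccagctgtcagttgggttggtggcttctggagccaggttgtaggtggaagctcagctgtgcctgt

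The motif was present in the printed windows of Frzb, Dkk1 and Wnt11. Wnt11 has a second upstream window in RefSeq, chr7:98838595-98838844 on the plus strand, which held no match and is not printed. The printed window of Wnt11 was picked because it held the motif, so the printed windows give no rate of matches. In Dkk1 the motif occurred at 117 and 174 bases before the start, in Frzb at 95 and in Wnt11 at 50. The windows of Sfrp2, Fzd5, Axin2 and Nkd1 held none of these letters, which says nothing of sites elsewhere. Of the other windows, those of Fzd1 and Gsk3b held it. These upstream windows were rich in G and C, with a median of 66.0% over the 32, beside 52.4% over all windows, and with a median of 21 CpG dinucleotides beside 6. Within the list, those of the secreted inhibitors had 62.8% G and C and 16 CpG (5 windows), those of the receptors 72.8% and 25 (7 windows).

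Other genes of the pathway gave no common direction. A further list named 55 genes, of which 35 were tested, and 0 of them passed an adjusted p of 0.05 by limma, with 1 higher and 0 lower at an unadjusted p under 0.05, beside 2.52% and 2.05% of all tested genes. Of the 35, 14 lay above wild type on both arrays and 6 below, beside 38.8% and 26.4% of all tested genes. Their medians were 0.14 and 0.05, beside 0.03 and 0.07 over all tested genes. Cthrc1, a secreted protein that stabilises Wnt and Frizzled complexes of the beta-catenin-independent branch and is made by fibroblasts, was at 8.19 in wild type, 7.84 in null 1 and 6.34 in null 2. Its mean difference was -1.10 ± 0.51, and as in Sfrp2 it was null 2 that was low. Ror1, a Wnt5a receptor, was at 6.05, 5.71 and 5.32, a mean difference of -0.54 ± 0.28. Celsr1, a planar polarity cadherin known for aligning hair follicles, was at 6.16, 6.93 and 6.80. Both uncv null values of Celsr1 were above wild type, with a mean difference of 0.70 ± 0.26, and it was the 1 gene of the 35 past 1.5-fold on both arrays, beside 1.49% of all tested genes that were higher by that rule. Csnk1d, a kinase of the pathway, was at 8.93, 9.36 and 9.34.

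Targets of beta-catenin were listed separately as a readout of the pathway, and 11 of 16 were tested. By limma 0 passed an adjusted p of 0.05 and 0 had an unadjusted p under 0.05. Of the 11, Myc lay above wild type on both arrays, beside 38.8% of all tested genes. Axin2, Nkd1 and Bmp4 lay below on both, beside 26.4%, and 7 were split, beside 2942 of 8456 genes. The median of the 11 was 0.12 in null 1 and -0.14 in null 2, so the medians of the null arrays lay on opposite sides of 0. Lgr5, an R-spondin receptor of follicle stem cells, was at 4.92, 4.70 and 5.67, high in null 2, where Axin2 and Nkd1 were low. Lgr5 was under 5 in wild type and null 1 and passed the filter through its null 2 value. Its place among the 11 thus depends in part on the filter. Myc was at 5.52, 5.90 and 5.70. Lgr5, Lef1, Znrf3, Apcdd1, Notum and Rnf43 are on both this list and the further pathway list, with Notum and Rnf43 not tested. Axin2, Nkd1 and Tcf7 are also among the transducers, and Dkk4 is among the secreted inhibitors. Lef1, the partner of beta-catenin in the hair matrix, was at 6.27, 6.48 and 6.13, and Ccnd1, a cell cycle target, at 8.76, 8.87 and 8.52. In both targets null 1 was the highest array and null 2 the lowest.

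Markers of the cell types in the tissue also differed between the arrays. In whole skin, fewer cells of a type and less RNA per cell cannot be told apart. Of the 7 fibroblast markers, all tested, 6 lay below wild type on both arrays and 0 above, beside 26.4% and 38.8% of all tested genes. None of the 7 was near background (the lowest, Pdgfra, was at 8.83 or more). Their median was -0.07 in null 1 and -0.49 in null 2, and their summed level on a log2 scale was 14.5 in wild type, 14.4 in null 1 and 14.0 in null 2. In null 1 the median of the secreted inhibitors was -0.43 where that of the fibroblast markers was -0.07. In null 2 the medians were -0.60 and -0.49. The part of the fibroblast share in the values of Sfrp2, Sfrp4, Dkk3, Wnt5a and Cthrc1 was not tested.

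Of 9 dermal papilla markers, Sox2 and Alpl had means under 5. Among the 7 tested, 5 were lower than in wild type on both arrays, 1 was higher (Prom1) and 1 was split (Fgf7). The counts of this and the following lists stand beside 26.4% lower, 38.8% higher and 2942 of 8456 split among all tested genes. Prom1 differed from wild type by 0.36 in null 1 and 1.03 in null 2. The medians of the 7 were -0.22 and -0.41, and their summed level was 10.3, 9.99 and 9.74. Hair matrix and shaft genes had medians of -0.26 in null 1 and 0.20 in null 2, with 7 of 9 split between the arrays. The keratinocyte markers had medians of -0.06 and 0.17, with 2 of 6 above wild type on both arrays, 1 below and 3 split. Krt14, above on both, was at 11.5, 11.6 and 12.0, and Krt15, below on both, at 10.2, 9.97 and 9.55. Adipocyte markers were above wild type on both arrays in 5 of 5, with medians of 0.54 and 0.81, and skeletal muscle markers below in 8 of 8, with medians of -0.84 and -0.99. The medians of the fat and muscle lists were farther from 0 than that of any Wnt role group on the same array. Melanocyte markers were split in 5 of 5, with medians of -0.51 and 0.42, and macrophage markers (4 of 4 tested) had medians of 0.08 and 0.32. Of 4 endothelial markers 3 were tested and all 3 were split, and of 4 Schwann cell markers 2 were tested, namely Mbp at 9.16, 7.88 and 7.29 and Sox10, which was split, at 5.97, 5.99 and 5.42. The part of these lists in the Wnt values was not tested.

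**Figure D5:**
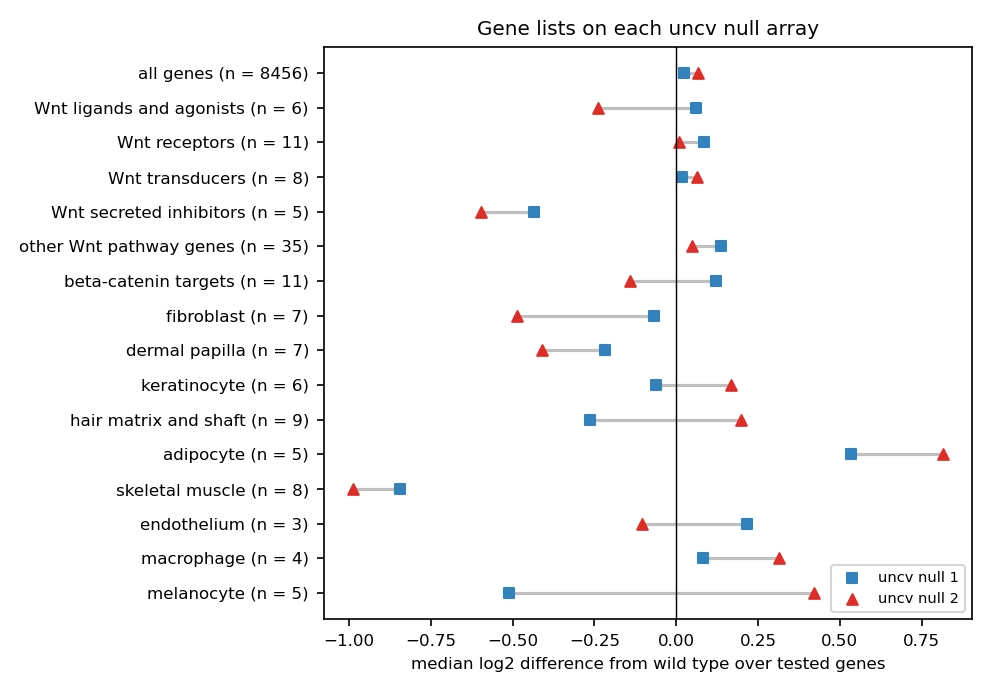
Median log2 difference from wild type (x axis) over the tested genes of each list in null 1 (blue squares) and null 2 (red triangles), with the number of tested genes in brackets (the Schwann cell list, with 2 tested genes, is not drawn). The secreted Wnt inhibitors lie at -0.43 and -0.60, the fibroblast markers at -0.07 and -0.49, and the Wnt receptors and transducers close to 0 with all genes.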

How the data were processed

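The samples were 1 wild type and 2 uncv null dorsal skins, each on 1 single-colour array with biotin-labelled cRNA. The authors deposited 1 log2 value per probe set and array, made with RMA per the submitters' processing notes. RMA subtracts background, equalises the arrays and summarises probes. Which program and background model they used is not given in the sources used here. After RMA a change common to all transcripts is invisible. Detection calls were not used here, and the number of arrays limits the precision.

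Of 45101 probe sets, 64 were controls, 34945 had 1 gene symbol, 932 several and 9160 none in the platform annotation. Entrez identifiers of 34741 matched the RefSeq table. The probe set with the highest mean stood for a gene, and genes with a mean of at least 5 entered limma 3.58.1, run in R 4.3.3 (lmFit, eBayes without trend, Benjamini-Hochberg over 8456 genes). The residual degree of freedom was 1 and the prior degrees of freedom 7.57, so the lone wild type sample is taken to have the spread of the uncv null samples. The labels number the uncv null samples and the design text calls them mice; p-values measure only the spread between these samples.

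Simulated data for this comparison held 20 runs of 8456 genes, with 200 per run changed by 1 to 4 log2 units. There limma called 27.4% of 1-unit and 97.5% of 2-unit changes. These rates belong to that mix of sizes, and a mix with fewer or smaller changes was not tested. On the arrays themselves limma called 0 of 8456 genes, and the smallest adjusted p was 0.414. The muscle genes Tnni1 and Myh3, with mean differences of -2.00 and -2.03, had limma adjusted p of 0.4139 and 0.9832. Upstream sequences came from RefSeq (GRCm38.p6). Probe sets are given without coordinates.

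Named genes were the members past a fold rule, the 4 members with the largest mean difference in each role group, and the 4 in each of the further pathway lists. Other genes are given to complete a role group, a choice made after seeing values. The members and lists were chosen with earlier results of these data known. Alternatives were other filters, the mean of probe sets, centring, quantile normalization, an intensity trend and leaving out each uncv null array.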

Additional observations from a re-analysis of the deposited data

How the results depend on the processing

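The count of tested Wnt genes past the adjusted threshold was 0 under every alternative run, namely no filter, a minimum mean of 7, the mean of probe sets, centring on the median, repeated quantile normalization and an intensity trend. The count past the 2-fold rule on both arrays was 0, and 0 to 2 when 1 uncv null array was left out (2, Sfrp2 and Sfrp4, without uncv null 1). The count past the 1.5-fold rule was 1, but 0 at a minimum mean of 7, which Dkk3 does not reach, 0 with the mean of probe sets, and 1 to 8 with 1 array left out (8 without uncv null 1). Genes above wild type on both arrays numbered 12, but 4 at a minimum mean of 7, where fewer genes are tested; those below numbered 13, but 21 unfiltered and 6 at that minimum. The median of the ligands, -0.09, was 0.13 with the mean of probe sets and -0.24 to 0.06 with 1 array left out. The receptor median, 0.08, was 0.0178 unfiltered, 0.165 at a minimum mean of 7, 0.0255 with centring, and 0.008 to 0.0845 with 1 array left out. The transducer median, 0.03, was -0.0669 unfiltered, -0.0576 at a minimum mean of 7, -0.0156 with the mean of probe sets, -0.0268 with centring and 0.0001 with quantile normalization. The median of the secreted inhibitors, -0.68, was -1.11 at a minimum mean of 7, where Sfrp2 alone is left, and -0.60 to -0.43 with 1 array left out. Where no construction is named, the cause was not tested. The 16 members named by the rule kept their direction with no filter, centring and quantile normalization. So did the 11 with a value under the mean of probe sets (Wnt5a, Fzd4, Axin2, Nkd1 and Sfrp1 then fall under the filter) and the 5 that reach a mean of 7 (Wls, Fzd1, Fzd5, Gsk3b and Sfrp2). Single members were not given for the intensity trend. Sfrp1 was at -0.02 without uncv null 1. With 1 wild type sample, omitting it leaves no comparison. No paired analysis was possible because the labels give the wild type sample no replicate number, and the groups share fewer than 2 numbers.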
